A study of Mus musculus with 6 samples.

Results

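The 10 immediate early genes described here are Fos, Jun, Junb, Egr1, Egr2, Ier2, Ier3, Dusp1, Ctgf and Cyr61, chosen by symbol from a table of 19467 genes. All 10 were in the table and passed the filter on low counts, which kept 14725 genes. The RNA came from E14Tg2A cells, a single mouse embryonic stem cell line grown in serum with leukaemia inhibitory factor. One arm received an antisense oligonucleotide (ASO) against LINE1, the retrotransposon family, and the other arm an ASO labelled RC, the control. Both arms received 5 nmol of Lissamine-tagged ASO by nucleofection, a form of electroporation, and 300000 fluorescent cells per sample were sorted after 48 h, so both share delivery and sorting. There were 3 libraries in each arm, with 26633433 to 31704616 gene-assigned reads in the LINE1 ASO arm and 19954026 to 29092272 in the RC ASO arm. The labels do not say that replicates were separate cultures, so the p-values measure the spread between these libraries, which may be technical. Reads of the 6 L1Md repeats, young LINE1 subfamilies of the mouse, summed to 7223, 3277 and 6588 CPM in LINE1 ASO replicates 1, 2 and 3, against 7894, 3933 and 7784 CPM in the control replicates, so each LINE1 ASO library was below the control of the same number while the arms overlapped (two-sided exact permutation p = 0.5 with the numbers ignored, where 3 against 3 cannot go below 0.1).

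Immediate early genes are transcribed within minutes of a signal without new protein synthesis, and their transcripts are short-lived. Growth factors and stress reach them through the ERK, JNK and p38 kinases, which act on SRF and its partners and on AP-1 and ATF factors already bound at their promoters. Ctgf and Cyr61 also respond to YAP bound to TEAD factors, the output of the Hippo pathway. They are also known to respond to dissociation and sorting of cells, steps that both arms went through.

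Jun and Ctgf were the members that rose in the LINE1 ASO arm, at 2.06 and 1.96 times their control levels. Cyr61 and Fos were higher in every LINE1 ASO library than in the control library of the same replicate number, without passing the main test. Junb, Egr1, Ier2 and Dusp1 had fitted ratios between 0.897 and 1.04, Egr2 was barely expressed, and Ier3 had the lowest ratio, 0.651. No member was called lower by this test, and with the replicate number added to the fit as a block Ier3 and Dusp1 were called lower and Fos and Cyr61 higher. The test was the quasi-likelihood F test of edgeR on TMM-scaled counts, with p-values adjusted by Benjamini-Hochberg (BH) over all 14725 genes and a call under 0.05. It called 2 of the 10 members, against 6.11% of all genes, of which 726 were higher (4.93%) and 173 lower (1.17%). The log2 fold change was above 0 in 6 of 10 members and in 51% of all genes. With library totals in place of TMM factors the split over all genes was 981 higher and 50 lower. The median log2 fold change was 0.29 over the 10 members and 0.01 over all genes tested. These are bulk samples, in which a change in the number of expressing cells and a change in RNA per cell cannot be told apart.

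**Figure D1:**
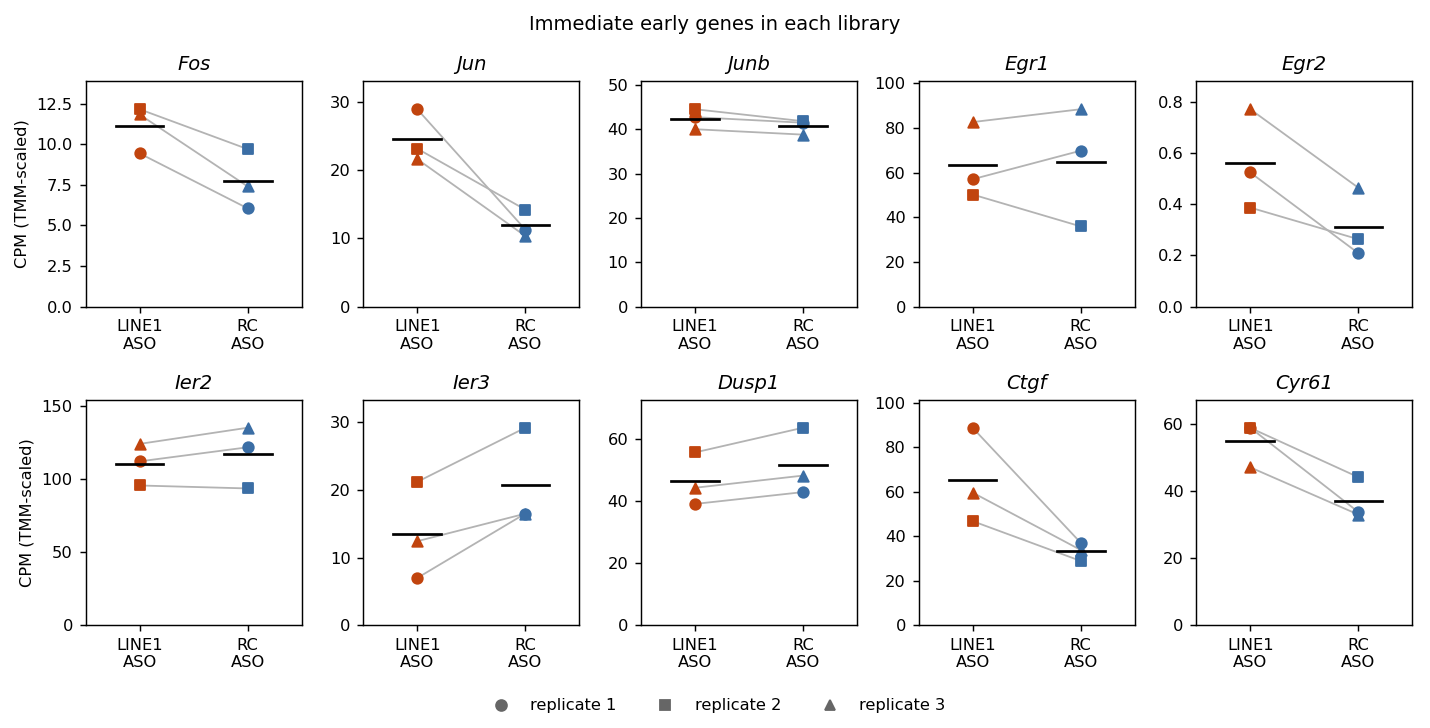
Level of each gene in each library as CPM after TMM scaling (counts scaled to library size), with a linear axis from 0 in each panel. Points are libraries, marker shapes are replicate numbers, grey lines join libraries of the same number and black bars are arm means. Jun, Ctgf and Cyr61 are the genes whose arms do not overlap, and Jun spans 21.7 to 29.0 CPM in the LINE1 ASO arm against 10.4 to 14.2 CPM in the RC ASO arm.

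Of the AP-1 subunits, Jun encodes the DNA-binding protein c-Jun, which pairs with Fos or ATF proteins and is activated by JNK. It stood at 29.0, 23.2 and 21.7 CPM (counts scaled to the TMM-adjusted library size) in LINE1 ASO replicates 1, 2 and 3, against 11.3, 14.2 and 10.4 CPM in RC ASO replicates 1, 2 and 3. Every LINE1 ASO library lay above every control library. The means were 24.6 ± 3.87 CPM in the LINE1 ASO arm and 12.0 ± 2.02 CPM in the RC ASO arm (SD, n = 3 each), a 2.06-fold ratio. The fit gave 1.04 ± 0.16 on the log2 scale (SE; edgeR, BH-adjusted p = 0.0150). The log2 ratio within replicate numbers 1, 2 and 3 was 1.36, 0.70 and 1.07. The call of Jun was lost when LINE1 ASO replicate 1 (BH-adjusted p = 0.0507), RC ASO replicate 1 (0.0771) or RC ASO replicate 3 (0.0814) was left out of the edgeR fit.

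The sequence before the Jun start is shown because Jun rose, and that of Cyr61 because it was the other member with a sequence whose arms did not overlap. Each is the 250 bases upstream of the RefSeq start in GRCm38.p6, on the minus strand, at chr4:95052223-95052472 for Jun and chr3:145649986-145650235 for Cyr61. Capitals mark TGACATCA in Jun, the form of the AP-1/ATF element known from this promoter, where c-Jun and ATF2 bind, and CATTCC in Cyr61, the reverse complement of GGAATG, the core letters that TEAD factors recognise.
Jun: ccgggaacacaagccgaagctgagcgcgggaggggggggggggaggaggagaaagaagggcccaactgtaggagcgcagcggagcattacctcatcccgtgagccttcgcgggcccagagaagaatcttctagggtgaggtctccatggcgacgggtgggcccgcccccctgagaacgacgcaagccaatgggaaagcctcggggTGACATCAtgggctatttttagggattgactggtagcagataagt
Cyr61: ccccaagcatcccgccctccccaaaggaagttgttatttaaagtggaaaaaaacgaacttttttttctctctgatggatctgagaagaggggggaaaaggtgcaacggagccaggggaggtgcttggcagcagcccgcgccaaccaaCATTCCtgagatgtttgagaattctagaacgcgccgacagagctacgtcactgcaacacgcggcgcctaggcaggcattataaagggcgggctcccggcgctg
TGACATCA lay at -45 to -38 from the Jun start, counting the last base before the start as -1, and 2.93% of all 32851 promoter windows held it on either strand. CATTCC lay at -103 to -98 in Cyr61, and 12.6% of windows held GGAATG or its complement. Windows were searched on both strands for TGACGTCA, the cyclic AMP response element (1.55% of windows), TGANTCA, the AP-1 element (6.75%), GCGNGGGCG, the EGR element (4.7%), and the CArG box bound by SRF (1.47%). No 2 of the matches in these members overlapped each other. Dusp1 held TGACGTCA at -143 to -136, Egr2 held a CArG box in 4 of its 5 annotated windows, of which 3 overlap and share 1 box, and the fourth also held GGAATG. The letters searched were not in the 250-base windows of Fos, Junb or Ier3. Sites outside these windows and inexact matches were not searched, so these genes may still hold such elements. Windows of Ctgf, Egr1 and Ier2 were not used.

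Fos encodes the partner of Jun in the classical AP-1 dimer and is the best known immediate early gene. It had 9.43, 12.2 and 11.8 CPM in LINE1 ASO replicates 1, 2 and 3, against 6.04, 9.69 and 7.39 CPM in the control replicates. The arms overlapped, because control replicate 2 lay above LINE1 ASO replicate 1, although each LINE1 ASO library exceeded the same-numbered control, with log2 ratios of 0.64, 0.33 and 0.68. The fitted ratio was 1.44 with a 95% interval of 1.05 to 1.98 that is not adjusted for the number of genes, and the edgeR test gave a BH-adjusted p of 0.173. With the replicate number as a block in the fit Fos was higher (log2 fold change 0.54 ± 0.11, SE, edgeR, BH-adjusted p = 0.00372). That fit called 17.6% of all genes higher and 16.1% lower.

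Junb, an AP-1 subunit that competes with c-Jun at many sites, was the steadiest member. Its libraries ran from 40.0 to 44.5 CPM in the LINE1 ASO arm and from 38.8 to 41.8 CPM in the RC ASO arm. The fitted ratio was 1.04, and the 95% interval of 0.917 to 1.19 leaves out a change of the size found for Jun. The arms of Junb overlapped.

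The zinc finger factor genes Egr1 and Egr2 differed widely in level. Egr1, the EGR factor induced by ERK through SRF, had 57.0, 50.2 and 82.7 CPM in LINE1 ASO replicates 1, 2 and 3, against 69.9, 35.9 and 88.4 CPM in the control replicates. Replicate 2 was lowest and replicate 3 highest in both arms, so the arms overlapped widely. The fitted ratio was 0.978 with a 95% interval of 0.585 to 1.63, which does not exclude a moderate change either way. Its sign changed between settings, and it was 0.0191 with the replicate block, -0.35 without RC ASO replicate 2 and 0.24 without RC ASO replicate 3 on the log2 scale. Egr2, the factor known for hindbrain patterning and myelination, had 17, 12 and 21 reads in the LINE1 ASO libraries and 4, 7 and 13 in the control libraries. Every library of Egr2 was thus under 1 CPM, and RC ASO replicate 3 lay above LINE1 ASO replicate 2. The fitted ratio of 1.72 had a 95% interval of 0.877 to 3.37, and a difference was not detectable at this depth (edgeR, BH-adjusted p = 0.323, and 0.0938 with the replicate block).

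**Figure D2:**
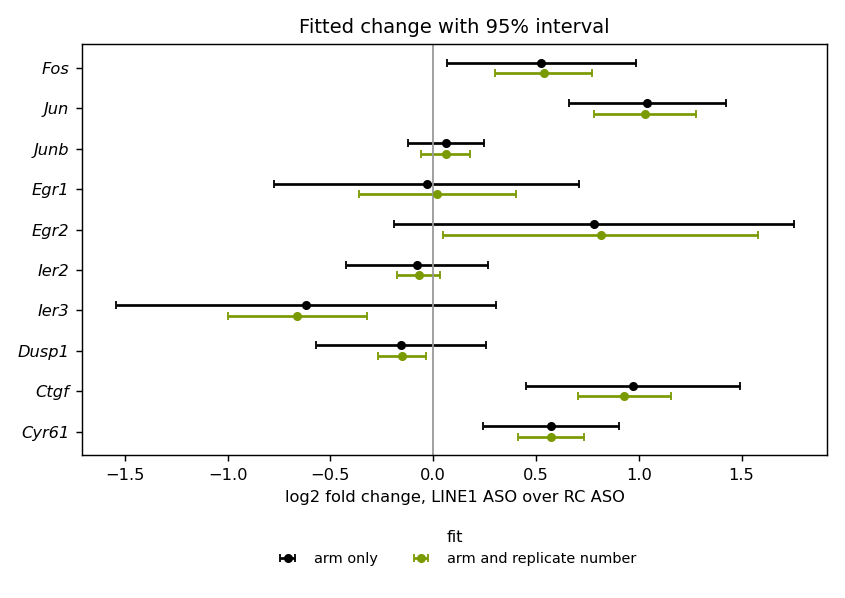
Fitted log2 fold change of each gene, LINE1 ASO over RC ASO, with its unadjusted 95% interval, from the fit on the arms alone (black) and the fit that adds the replicate number (green). Jun at 1.04 and Ctgf at 0.97 stand farthest to the right of 0 among the called genes, while the intervals of Egr1, Egr2 and Ier3 are the widest and narrow when the number is added.

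Of the IER genes, Ier2 encodes a small nuclear protein and was the most abundant member per length. It had 112, 95.5 and 124 CPM in LINE1 ASO replicates 1, 2 and 3, against 122, 93.5 and 135 CPM in the control replicates. The arms overlapped and the fitted ratio was 0.947 with a 95% interval of 0.744 to 1.20. Its log2 fold change of -0.08 turned to 0.00405 with library totals and to 0.0173 without RC ASO replicate 3. Ier3, a stress-inducible gene whose protein affects cell survival, had 6.97, 21.2 and 12.4 CPM in the LINE1 ASO replicates, against 16.5, 29.2 and 16.5 CPM in the control replicates. Each LINE1 ASO library was below its same-numbered control, with log2 ratios of -1.25, -0.46 and -0.41, but replicate 2 was high in both arms and the arms overlapped. The fitted ratio was 0.651 with a 95% interval of 0.343 to 1.23 (edgeR, BH-adjusted p = 0.414). With the replicate block Ier3 was lower, at a log2 fold change of -0.66 ± 0.15 (SE; edgeR, BH-adjusted p = 0.0100).

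Dusp1 encodes the phosphatase MKP-1, which switches off p38, JNK and ERK and is itself induced by them. It had 39.1, 55.8 and 44.4 CPM in LINE1 ASO replicates 1, 2 and 3, against 43.0, 63.8 and 48.3 CPM in the control replicates. The difference within each replicate number was small and of the same sign, at log2 ratios of -0.13, -0.19 and -0.12, while the libraries of each arm differed by more than that. The fitted ratio was 0.897 with a 95% interval of 0.674 to 1.19. With the replicate block Dusp1 was lower, at -0.15 ± 0.05 on the log2 scale (SE; edgeR, BH-adjusted p = 0.0458), and without RC ASO replicate 2 the log2 fold change was 0.00340.

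Ctgf and Cyr61 encode the secreted matrix proteins CCN2 and CCN1, which bind integrins. Ctgf had 88.7, 46.7 and 59.6 CPM in LINE1 ASO replicates 1, 2 and 3, against 37.0, 28.8 and 33.7 CPM in the control replicates. The arms did not overlap, and LINE1 ASO replicate 1 stood well above the other two. The means were 65.0 ± 21.5 CPM in the LINE1 ASO arm and 33.2 ± 4.11 CPM in the RC ASO arm (SD, n = 3 each), a fitted ratio of 1.96 with a log2 fold change of 0.97 ± 0.22 (SE; edgeR, BH-adjusted p = 0.0479). This call was close to the threshold. The edgeR call was lost when a gene had to reach 1 CPM in every library of an arm (BH-adjusted p = 0.0509) and in 5 of 6 fits that left out 1 library (up to 0.156), where the log2 fold change went down to 0.66 without LINE1 ASO replicate 1. Ctgf kept its edgeR call when LINE1 ASO replicate 2 was left out (BH-adjusted p = 0.0133) and with the replicate block (0.000329).

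Cyr61 had 59.0, 58.9 and 47.1 CPM in LINE1 ASO replicates 1, 2 and 3, against 33.8, 44.2 and 33.0 CPM in the control replicates. The arms did not overlap. The fitted ratio was 1.49 with a 95% interval of 1.18 to 1.87, and the edgeR test just missed the threshold (BH-adjusted p = 0.0595). Cyr61 was higher with the replicate block (edgeR, BH-adjusted p = 0.000330) and by DESeq2 (BH-adjusted p = 0.00987). Together with Jun and Ctgf it made 3 of 10 members whose LINE1 ASO libraries all lay above the control libraries, against 16.8% of all genes tested. In 0 of 10 did they all lie below, against 11.9% of genes.

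Overlap with genes on the opposite strand may affect the counts of Jun, Junb, Dusp1 and Ctgf. In GENCODE M21, which need not match the annotation the authors counted on, 232 of the 3189 exon bases of Jun, 173 of the 2301 of Junb, 11 of the 3311 of Dusp1 and 665 of the 2861 of Ctgf overlapped an annotated gene on the opposite strand. The kit was directional, but the strand setting of the counting is not given in the sources used here. Whether reads in these overlaps were added or left uncounted thus cannot be told. The 50-base stretches of the longest transcript were also searched for in transcripts of other genes, on either strand. The share found was 5.83% for Jun, 8.60% for Ctgf and 0 for the other 8 members. The opposite-strand partners were among the transcripts searched, so these shares can be the same overlap and need not add to it.

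Per kilobase of exon, a scale on which genes can be compared, the members spanned a wide range. The length was that of all GENCODE M21 exons of a gene, which need not match the annotation counted on. For Dusp1 it was 3311 bases against 2313 for the longest transcript, so the order can depend on the length chosen. Ier2 was highest, with 72.6 ± 9.39 CPM per kilobase in the LINE1 ASO arm and 76.7 ± 13.9 in the RC ASO arm, and Egr2 lowest, with 0.165 ± 0.0574 and 0.0918 ± 0.0396 in the LINE1 ASO and RC ASO arms (SD, n = 3 each). Below Ier2, the LINE1 ASO order by level was Cyr61 (27.2 CPM per kilobase), Ctgf (22.7), Junb (18.4), Egr1 (14.1), Dusp1 (14.0), Ier3 (12.0), Jun (7.72) and Fos (4.73). Control libraries ran Ier3 (18.3), Cyr61 (18.3), Junb (17.7), Dusp1 (15.6), Egr1 (14.4), Ctgf (11.6), Jun (3.75) and Fos (3.28). The ranges of neighbours overlapped in 6 of 9 neighbouring pairs in each arm, so most of this order is not resolved. In the LINE1 ASO arm Ier2 stood clear above Cyr61, Jun above Fos, and Fos above Egr2. In the RC ASO arm Jun and Fos overlapped, while Ier2 stood clear above Ier3, Ctgf above Jun and Fos above Egr2.

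**Figure D3:**
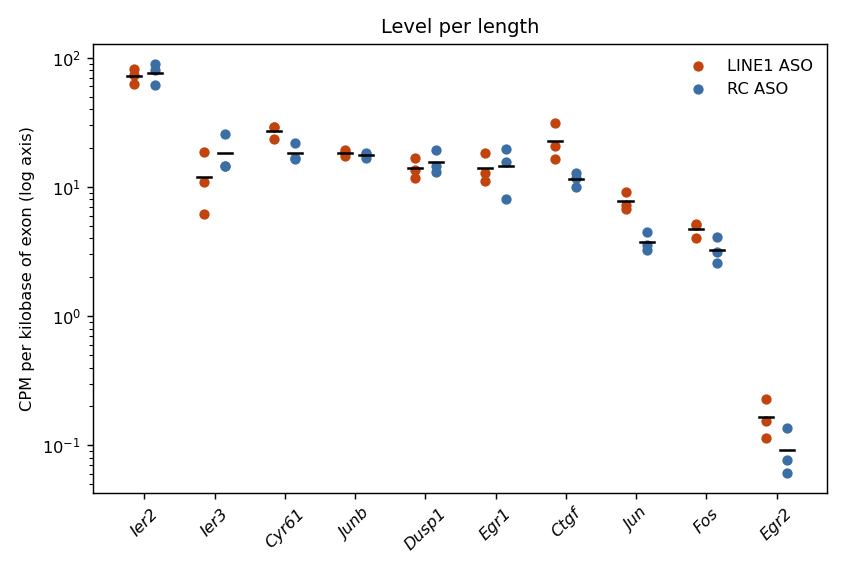
Level per length of each gene in CPM per kilobase of exon on a log axis, with LINE1 ASO libraries on the left of each pair and RC ASO libraries on the right, black bars marking means. Ier2 stands above 61 in every library and Egr2 below 0.23, and the other genes lie between them with overlapping ranges for most neighbours.

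The replicate number accounted for more of the differences between libraries than the arm did in 5 of the 10 members, against 60.9% of all genes tested. These shares split the squared deviations of log2 CPM over the 6 libraries into arm, number and a remainder, as a description without a test. The number has more levels than the arm, so noise alone gives it a larger share, and the shares are not like for like. Arm took 88.6% for Jun, 73.7% for Cyr61, 71.9% for Ctgf, 59.0% for Fos and 48.6% for Egr2. The number took 93.4% for Ier2, 89.6% for Dusp1, 86.2% for Egr1, 75.5% for Junb and 61.2% for Ier3. Replicate 2 was the highest library of both arms for Fos, Junb, Ier3 and Dusp1 and the lowest of both arms for Egr1, Ier2 and Ctgf. Such agreement in 7 of 10 members is near the 60.9% of all genes for which replicate 2 was extreme in the same direction in both arms. What a number shares is not given in the labels.

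**Figure D4:**
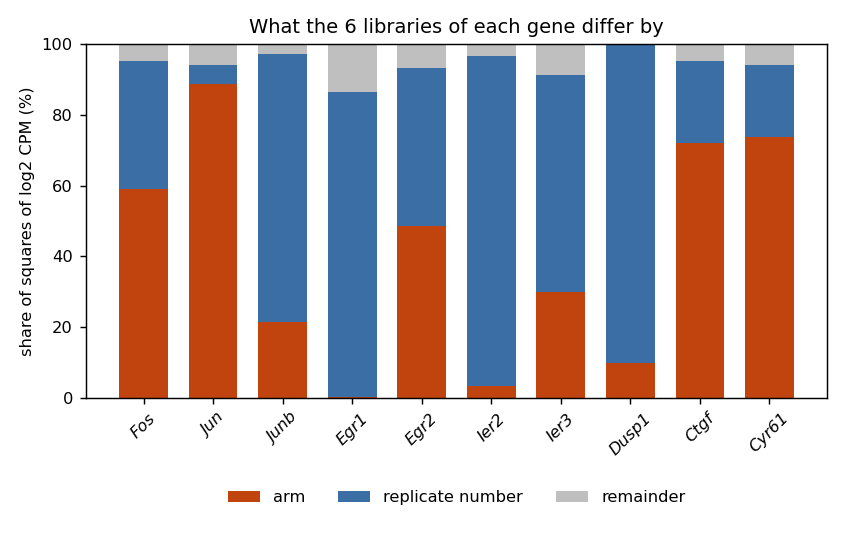
Share, in percent, of the squared deviations of log2 CPM over 6 libraries that falls to the arm, to the replicate number and to the remainder, for each gene. Jun, Cyr61, Ctgf and Fos are mostly arm, while Ier2, Dusp1, Egr1, Junb and Ier3 are mostly replicate number. The number has more levels than the arm, so the shares are not like for like.

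In 6 of 10 members all 3 LINE1 ASO libraries were above the control of the same number (Fos, Jun, Junb, Egr2, Ctgf and Cyr61), against 32.8% of all genes. Ier3 and Dusp1 were below in all 3, as were 30.5% of genes. With the replicate block 4 members were called higher (Fos, Jun, Ctgf and Cyr61) and 2 lower (Ier3 and Dusp1), against 17.6% and 16.1% of all genes.

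Genes that work with these members were read off the same fit in 12 lists, of which 165 of 175 genes were tested, 16 rose and 1 fell. That total of 17 calls was 5, 20 and 6 without LINE1 ASO replicates 1, 2 and 3, and 1, 29 and 3 without RC ASO replicates 1, 2 and 3. Over all genes the main fit called 4.93% higher and 1.17% lower, the shares to hold beside the main counts of each list. The counts with the replicate block are given beside each list whose calls it changed, and over all genes that fit called 17.6% higher and 16.1% lower. Of 10 other AP-1 and ATF factors 1 rose (4 with the block), and the list median log2 fold change was 0.36. It was Fosl1, the gene of the FOS relative FRA-1, at 7.92, 3.38 and 4.81 CPM in LINE1 ASO replicates 1, 2 and 3, against 2.29, 1.20 and 1.75 CPM in the control replicates. The arms did not overlap, and the fitted ratio was 3.11 (edgeR, BH-adjusted p = 0.0443). It did not pass in 5 of the 6 fits that left out 1 library. Of the 5 tested EGR and NR4A factors and NAB corepressors, which restrain EGR proteins, 0 were called, also with the block, and all 5 had log2 fold changes below 0 (median -0.12). The other two listed genes, Egr3 and Nr4a3, did not pass the filter on low counts and are given for that reason after their values were seen. Egr3 had 13, 8 and 6 reads in LINE1 ASO replicates 1, 2 and 3, against 1 read in each control library. Nr4a3 had 4, 0 and 3 reads in the LINE1 ASO libraries, against 0, 0 and 1 in the control libraries. At these counts neither gene was tested. Batf, Areg, Wisp2 and Wisp3 of the other lists did not pass the filter either, and of these Wisp2 had fewer reads in the LINE1 ASO arm.

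Among 38 other immediate early genes 4 were called higher and 0 lower, with a median log2 fold change of 0.01, the same as over all genes. The block called 9 higher and 8 lower. Plk2, a polo-like kinase gene, averaged 170 ± 47.1 CPM in the LINE1 ASO arm and 65.9 ± 14.0 CPM in the RC ASO arm (SD, n = 3 each). Btg2, an antiproliferative gene, averaged 115 ± 15.6 CPM in the LINE1 ASO arm and 48.7 ± 18.4 CPM in the RC ASO arm (SD, n = 3 each). The stress-response gene Gadd45g rose 2.58-fold, and Rhob, a small GTPase gene, rose 1.54-fold. Plk2 and Btg2 are also known p53 targets. Of 18 listed p53 targets 6 rose (12 with the block), with a median log2 fold change of 0.54, among them Mdm2 (2.36-fold), Trp73 (3.62-fold), Fas (7.55-fold) and Phlda3 (1.66-fold). Summed, the p53 list stood at 2428 to 3195 CPM in the LINE1 ASO libraries and 1528 to 2022 CPM in the control libraries, and its part in the changes of Jun, Btg2 and Plk2 was not tested.

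Of 23 ERK, JNK and p38 kinases and SRF factors, which carry the signal, 1 rose, Map2k4, the gene of a kinase that activates JNK, at 1.34-fold, and the list median log2 fold change was 0.01. The call of Map2k4 was at the threshold (edgeR, BH-adjusted p = 0.0497) and was lost with RLE factors (0.0576) or a 1 CPM filter (0.0527). The block called 3 of the 23 higher and 4 lower. The list named ERK feedback genes held Sprouty and Spred genes together with the transcription factor genes Etv4 and Etv5. Of its 7 genes 0 were called and 6 had log2 fold changes below 0 (median -0.26), of which 3 were lower with the replicate block. Of 10 other DUSP phosphatases 1 rose, Dusp8, which acts on JNK and p38, at 4.65 ± 1.81 CPM in the LINE1 ASO arm and 1.46 ± 0.280 CPM in the RC ASO arm (SD, n = 3 each), a 3.18-fold ratio. With the block 4 of these 10 were higher and 2 lower.

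Beside Ctgf and Cyr61, the Hippo pathway showed 0 calls among 17 tested pathway and TEAD genes, with a median log2 fold change of 0.19. With the replicate block 9 of the 17 were higher and 2 lower, against 17.6% and 16.1% of all genes. Of 11 other YAP target genes 1 rose, Ptpn14, a phosphatase gene whose protein binds YAP, at 176 ± 17.5 CPM in the LINE1 ASO arm and 95.5 ± 15.1 CPM in the RC ASO arm (SD, n = 3 each). That is 1.85-fold, and the list median was -0.02. With the block 3 of the 11 were higher and 3 lower. The other CCN family genes had 2 tested members and 0 calls (1 lower with the block). Among 13 cytoskeletal SRF targets 1 fell, the smooth muscle actin gene Acta2, to 6.43 ± 0.483 CPM in the LINE1 ASO arm, against 9.71 ± 0.812 CPM in the RC ASO arm (SD, n = 3 each), and 11 of 13 log2 fold changes were below 0 (median -0.21). With the block 1 of the 13 was higher and 5 lower. Acta2 did not pass in any of the 6 fits that left out 1 library.

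Of 11 heat shock genes, which also respond to cell handling, 2 rose, Hspa1a at 2.46-fold and Hspa1b at 1.58-fold, with a list median log2 fold change of 0.07. With the block 3 of the 11 were higher and 3 lower. Hspa1a and Hspa1b are near-identical copies, and how reads matching both were counted is not given, so their single values are uncertain. The summed level of the list was 19808 to 21931 CPM in the LINE1 ASO libraries and 21485 to 21945 CPM in the control libraries. Most of it was Hspa8, Hsp90aa1 and Hsp90ab1, with means of 5359, 6274 and 6183 CPM in the LINE1 ASO arm. Hspa1a and Hspa1b averaged 4.82 and 11.5 CPM there, so the sum cannot show their changes.

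**Figure D5:**
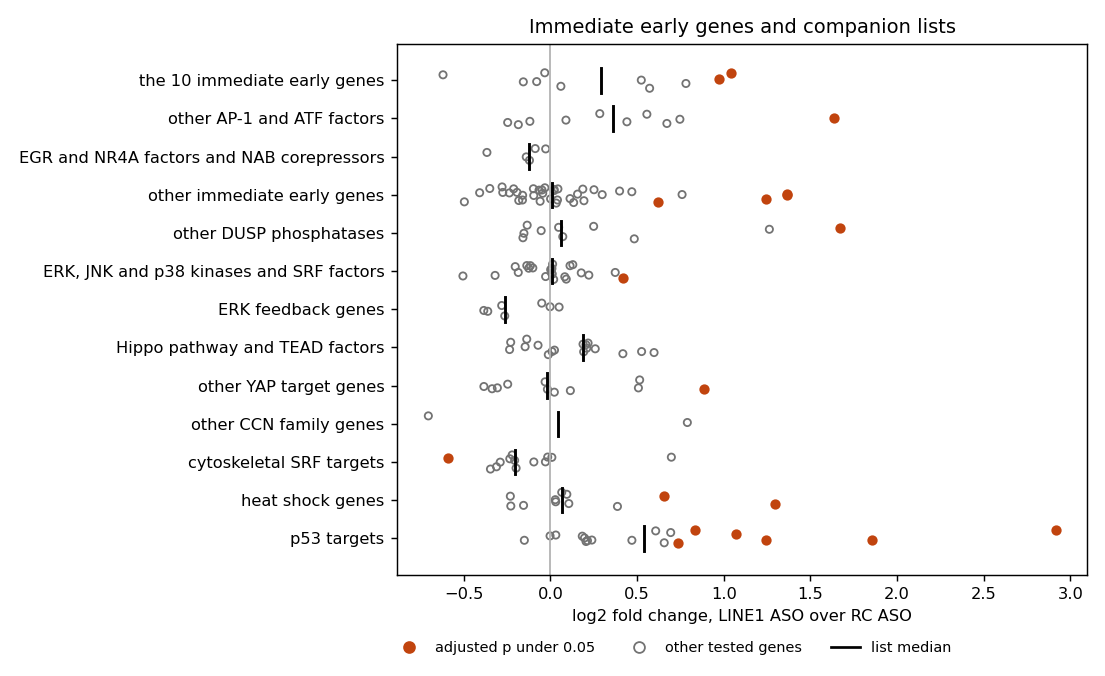
Log2 fold change, LINE1 ASO over RC ASO, of each tested gene in the immediate early group (top row) and the 12 companion lists. Filled points passed a BH-adjusted p under 0.05, open points did not, and black bars are list medians, which run from 0.54 for p53 targets to -0.26 for ERK feedback genes.

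Marker genes were read beside these values. The 7 embryonic stem cell markers summed to 3523 to 4275 CPM in the LINE1 ASO libraries and 4733 to 5179 CPM in the control libraries, and 1 of 7, Pou5f1, fell. All 7 had log2 fold changes below 0, and with the replicate block 6 were lower. The 7 markers of 2-cell-like cells, a rare state of stem cell cultures, all rose, also with the block, and summed to 94.0 to 241 CPM in the LINE1 ASO libraries and 8.21 to 10.7 CPM in the control libraries. LINE1 ASO replicate 1 was the highest library of that sum, of Jun and Ctgf and, barely, of Cyr61. It was also highest for the summed p53 targets, at 3195 CPM, against 2482 and 2428 CPM in LINE1 ASO replicates 2 and 3. The primitive endoderm sum was highest there too (25.3 CPM), and the stem cell and fibroblast sums were lowest there (3523 and 41.1 CPM). The share of all genes that peak in this library was not counted. The same library was the lowest of its arm for Fos, Ier3 and Dusp1. Fibroblast markers, of interest because fibroblasts express Ctgf and Cyr61 strongly, summed to 41.1 to 61.9 CPM in the LINE1 ASO libraries and 47.0 to 73.5 CPM in the control libraries. Of the 5 tested fibroblast markers 0 were called, against 1 higher and 2 lower with the block. The other listed markers, Dcn, Lum and Postn, did not pass the filter, with 0 to 1, 0 to 6 and 2 to 6 reads a library. Most of the fibroblast sum was Col1a1, Thy1 and Pdgfrb. Primitive endoderm markers summed to 19.8 to 25.3 CPM in the LINE1 ASO libraries and 16.1 to 18.4 CPM in the control libraries, with Pdgfra the 1 of 5 tested that rose (2 with the block). The part of 2-cell-like or endoderm-like cells in the changes of Jun and Ctgf was not tested.

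The genes whose libraries followed Jun and Fos most closely were found by the root mean square difference of log2 CPM, centred on each gene's mean over 6 libraries, among 9320 genes of at least 10 CPM. Fold changes near those of Jun and Fos follow from this choice and are no separate result. Nearest to Jun were Trafd1 (0.0582), Abhd5 (0.0666), Rb1 (0.0701), B230120H23Rik (0.0706) and 1700007K13Rik (0.0784). The 5 had log2 fold changes of 1.01, 0.99, 1.15, 0.95 and 1.06. Nearest to Fos were 4930402H24Rik (0.0887), Pacsin1 (0.0930), Wbscr27 (0.0935), Bcorl1 (0.104) and Slc24a6 (0.109), with log2 fold changes of 0.48, 0.41, 0.60, 0.53 and 0.53.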

How the data were processed

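The gene table holds unnormalised read counts by symbol, as deposited by the authors. The submitters' processing notes name TopHat2 2.0.9, HTSeq 0.6.1p1, R 3.3.0, the mm9 build and DESeq2 1.12.3. Libraries came from a directional mRNA kit, per the labels' protocols. How strand and multiply mapped reads were treated, and which annotation was used, is not given in the sources used here.

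The counts were fitted with edgeR 4.0.16 (R 4.3.3, limma 3.58.1) after filterByExpr (minimum count 10, minimum total 15) and TMM scaling. Robust quasi-likelihood F tests were adjusted by Benjamini-Hochberg over the 14725 genes kept. Each standard error is the fitted change over the square root of its F, and 95% intervals use the fit's degrees of freedom. The pipeline was tested on simulated counts. The members and lists were chosen with earlier results of these data known, so no list was given a test. Genes named are the members, up to 4 called genes of each list by smallest p, and the 5 nearest profiles to Fos and to Jun. Promoter windows are RefSeq's, used for 7 of 10 members (Cyr61 under its newer symbol). Ctgf and Ier2 had no window in the set used, and Egr1 was left out of the search by plan. The repeat table, deposited by the authors as raw counts too, served only to check the targeted repeats, scaled by the gene table's factors.

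Same-numbered libraries deviated together from their arm means over all genes (correlations of 0.393, 0.627 and 0.353 for numbers 1, 2 and 3), so the numbers were taken as pairs, although the labels do not say what a number shares. Among differently numbered pairs, 0.208 (LINE1 ASO 1 with RC ASO 3) and 0.106 (LINE1 ASO 3 with RC ASO 1) also exceeded the limit of 0.1. The counts or values with the block are therefore given beside the members and lists whose calls it changed. No library duplicated another of its arm (chi-square per degree of freedom 8.53 to 35.6). The alternatives tried were RLE factors, DESeq2 1.42.0, library totals, other count filters, the replicate block and left-out libraries.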

Additional observations from a re-analysis of the deposited data

How the results depend on the processing

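Of all genes 899 were called, of the members 2 and of the companion genes 17. With the replicate block these were 4964, 6 and 79, and the block changed no other call of a member than those of Fos, Cyr61, Ier3 and Dusp1. Without replicate 2 of both arms, the libraries set apart by principal components, they were 3039, 4 and 60, with Fos (adjusted p = 0.0312) and Cyr61 (0.00623) called beside Jun and Ctgf (edgeR quasi-likelihood, Benjamini-Hochberg). DESeq2 called 1625 genes and 32 companion genes, and 3 members. Requiring 1 CPM in every library of an arm left 1 member called and did not test Egr2. With 1 library left out the calls ran from 162 to 1520 genes, 0 to 3 members and 1 to 29 companion genes, and Jun passed in 3 of 6 fits, Ctgf in 1, Cyr61 in 1 and Fos in 1. Cyr61 also passed with library totals (adjusted p = 0.0458 by edgeR). The causes were not tested. The sign changed for members near 0: Egr1 was 0.0533 with library totals and 0.0191 with the replicate block, against -0.0327, and ran from -0.347 to 0.243 with 1 library left out. Ier2 was 0.00405 with library totals and ran from -0.239 to 0.0173, Junb from -0.0114 to 0.0816 and Dusp1 from -0.346 to 0.00340 with 1 library left out. Jun, Fos, Egr2, Ctgf, Cyr61 and Ier3 kept their direction under each of these alternatives that tested them. Of the named companion genes Fas passed in all 6 fits with 1 library left out, Mdm2 and Trp73 in 5, Plk2 and Ptpn14 in 4, Dusp8 in 3, Btg2, Gadd45g, Rhob, Map2k4, Hspa1a and Phlda3 in 2, Fosl1 and Hspa1b in 1 and Acta2 in 0. Depth limits Egr2 most, with 4 to 21 reads a library.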
